A study of Saccharomyces cerevisiae with 12 samples.

Results

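The 10 genes described here, ARO1, ARO2, ARO3, ARO4, ARO8, ARO9, TRP2, TRP3, TRP4 and TRP5, serve the making of aromatic amino acids in budding yeast. They were chosen by name for their place in the shikimate pathway, in the tryptophan branch and in aromatic transamination, with earlier results of these data known. The shares of all genes given beside their counts are thus a description and not a test. All 10 were measured, among 5656 genes that a probe set of the array names singly, and each of the 10 has 1 probe set. The arrays are Affymetrix YG-S98 arrays of total RNA, 12 in all, in 4 groups of 3. These groups are anc1Δ cells exposed to MMS, untreated anc1Δ cells, wildtype cells exposed to MMS, and untreated wildtype cells. MMS (methyl methanesulfonate) is an agent that methylates DNA.

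All cells are described as haploid MATa cells of the BY4741 background, which lacks functional HIS3, LEU2, MET15 and URA3, and all were grown in the rich medium YPD to mid-log phase. The anc1Δ strain carries a G418 resistance cassette in place of ANC1 (also TAF14), whose product is a shared subunit of several RNA polymerase II transcription complexes. Of the genes disrupted in this background, MET15 (MET17 in the probe annotation) read 5.92 to 13.3, URA3 7.23 to 17.2 and LEU2 23.2 to 64.5, whereas HIS3 read 755 to 1366 over the 12 arrays. The methods name 3 independent colonies of each strain as the source of RNA and do not mention MMS where they describe the arrays. How much MMS was given, for how long, and whether the exposed replicates came from those colonies is not stated in the sources used, and a p-value that involves them may therefore rest on technical spread only. The source names of the 3 exposed wildtype samples read untreated, against their titles, the descriptions of 3 anc1Δ samples name the wildtype, and the titles were followed.

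The shikimate pathway joins phosphoenolpyruvate and erythrose phosphate and leads, through chorismate, to phenylalanine, tyrosine and tryptophan. In yeast its genes are known targets of Gcn4, the activator of general amino acid control, which raises amino acid synthesis when amino acids run short. ARO3 and ARO4 encode the isoenzymes of the entry step, which are inhibited by phenylalanine and by tyrosine. ARO1 encodes a single large enzyme for the central steps, and ARO2 encodes chorismate synthase. TRP2 to TRP5 encode enzymes that carry chorismate to tryptophan. ARO8 and ARO9 encode aromatic aminotransferases, of which Aro9 is also used to break aromatic amino acids down and is induced by them through the activator Aro80.

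Values are RMA intensities on the linear scale, as deposited, and differences are on the log2 scale. A gene was called higher or lower at a Benjamini-Hochberg adjusted p under 0.05 from limma, adjusted over all 9275 probe sets tested, together with a fold of at least 1.5. ANC1 read 8.07 to 14.2 in exposed and 6.87 to 15.7 in untreated anc1Δ cells, against 175 to 198 in exposed and 237 to 356 in untreated wildtype cells. Of 5 genes taken as a check of MMS exposure (RNR2, RNR3, RNR4, HUG1 and MAG1), 4 were higher with MMS in anc1Δ and 5 in wildtype, where 16.0% and 27.7% of all genes were called higher. The repair gene MAG1 read 388 to 399.8 with MMS and 65.1 to 74.9 without in anc1Δ, against 458 to 503 and 69.9 to 93.5 in wildtype, whereas HUG1, induced by replication stress, read 36.6 to 44.9 and 28.1 to 41.1 in anc1Δ, against 212 to 231 and 40.2 to 55.6 in wildtype. The MATa-specific genes read lower in anc1Δ, since all 5 chosen as markers were called lower both with and without MMS, beside 18.4% and 12.4% of all genes. These markers thus did not show the given MATa type in anc1Δ as clearly as in wildtype, and why was not tested. The summed intensity of 4 MATalpha-specific genes was 176 to 182 in exposed and 139.98 to 169.7 in untreated anc1Δ cells, against 251 to 274 in exposed and 151 to 184 in untreated wildtype cells. SAG1 was the largest part of each sum, and the others were dim, at 11.7 to 43.4. Under MMS MF(ALPHA)2 was called higher in anc1Δ (0.88) and SAG1 lower (-0.83), and without MMS none of the 4 was called. For actin, the signal of the control probe set at the 3' end over that at the 5' end, which tracks RNA integrity, was 3.43 to 3.998 with MMS and 1.74 to 1.85 without in anc1Δ, and 3.31 to 3.85 with MMS and 1.47 to 1.68 without in wildtype. It thus moved with MMS in both strains, and its part in the MMS responses below was not tested.

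ARO3 and ARO4, which encode isoenzymes of the same step, followed different courses. ARO3 (YDR035W) read 1492, 1327 and 1601 in exposed anc1Δ cells and 1793, 1794 and 1892 in untreated anc1Δ cells, against 3789.7, 3627 and 3563 in exposed wildtype and 1639, 1705 and 1067 in untreated wildtype cells. Exposed wildtype cells stood far above the other 3 groups, which lay between 1067 and 1892. ARO4 (YBR249C) read 483, 366 and 409.8 in exposed anc1Δ cells and 1086, 1192 and 1057 in untreated anc1Δ cells, against 1356, 1201 and 1475 in exposed wildtype and 1436, 1625 and 1375 in untreated wildtype cells. Here exposed anc1Δ cells stood apart, far below the rest, and both wildtype groups overlapped.

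ARO1 and ARO2 showed the same contrast between a gene that moved with MMS mainly in wildtype and one that moved mainly in anc1Δ. ARO1 (YDR127W) read 1145, 1148 and 1217 in exposed and 1299, 1382 and 1466 in untreated anc1Δ cells, against 3660.1, 3887 and 3703 in exposed and 1291, 1297 and 1323 in untreated wildtype cells. The untreated strains overlapped, and only the exposed wildtype arrays left the range from 1145 to 1466. ARO2 (YGL148W) read 1585, 1588 and 1745 in exposed and 2463, 2829 and 2788 in untreated anc1Δ cells, against 3172, 3253 and 2921 in exposed and 3607, 3212 and 3229 in untreated wildtype cells. As for ARO4, both wildtype groups overlapped and exposed anc1Δ cells were lowest.

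All 4 tryptophan branch genes read highest in exposed wildtype cells. TRP2 (YER090W), for anthranilate synthase, read 1314, 1209.7 and 1237 in exposed and 995, 997 and 1021 in untreated anc1Δ cells, against 2790.4, 2539.8 and 2809 in exposed and 1145, 1176 and 1012 in untreated wildtype cells. TRP3 (YKL211C), whose product is the partner of Trp2 and also makes indole glycerol phosphate, read 257, 269 and 173 in exposed and 287, 264 and 259 in untreated anc1Δ cells, against 707, 737 and 707 in exposed and 272, 339.6 and 343 in untreated wildtype cells. The untreated strains overlapped in both genes. TRP4 (YDR354W), for anthranilate phosphoribosyltransferase, read 161, 150.1 and 139.6 in exposed and 207, 213 and 186 in untreated anc1Δ cells, against 678, 663 and 578 in exposed and 305, 326 and 312 in untreated wildtype cells. TRP5 (YGL026C), for tryptophan synthase, read 2685, 2687 and 2607 in exposed and 2427, 2297 and 2544 in untreated anc1Δ cells, against 4453, 4355 and 4380.0 in exposed and 2517, 2709 and 2581 in untreated wildtype cells. No groups of TRP4 overlapped, while for TRP5 the exposed anc1Δ arrays lay within the range of untreated wildtype cells.

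The aminotransferase genes kept all 4 groups apart. ARO8 (YGL202W) read 1035, 1031 and 1155 in exposed and 1227, 1218 and 1352 in untreated anc1Δ cells, against 2912, 2922 and 2888 in exposed and 2044, 1985 and 1995 in untreated wildtype cells. ARO9 (YHR137W) read 288, 259 and 290.2 in exposed and 147, 148 and 184 in untreated anc1Δ cells, against 1349, 1465 and 1343 in exposed and 328, 450.1 and 482 in untreated wildtype cells. Every anc1Δ array, exposed or not, was below every wildtype array in both genes. ARO9 had the widest span between its group means, 3.12 on the log2 scale, and TRP5 the narrowest, 0.86. Among the 10 genes, exposed wildtype cells had the highest mean in 8 and untreated wildtype cells in 2 (ARO2 and ARO4), while the lowest mean fell to exposed anc1Δ cells in 6, to untreated anc1Δ cells in 3 and to untreated wildtype cells in 1 (ARO3).

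**Figure D1:**
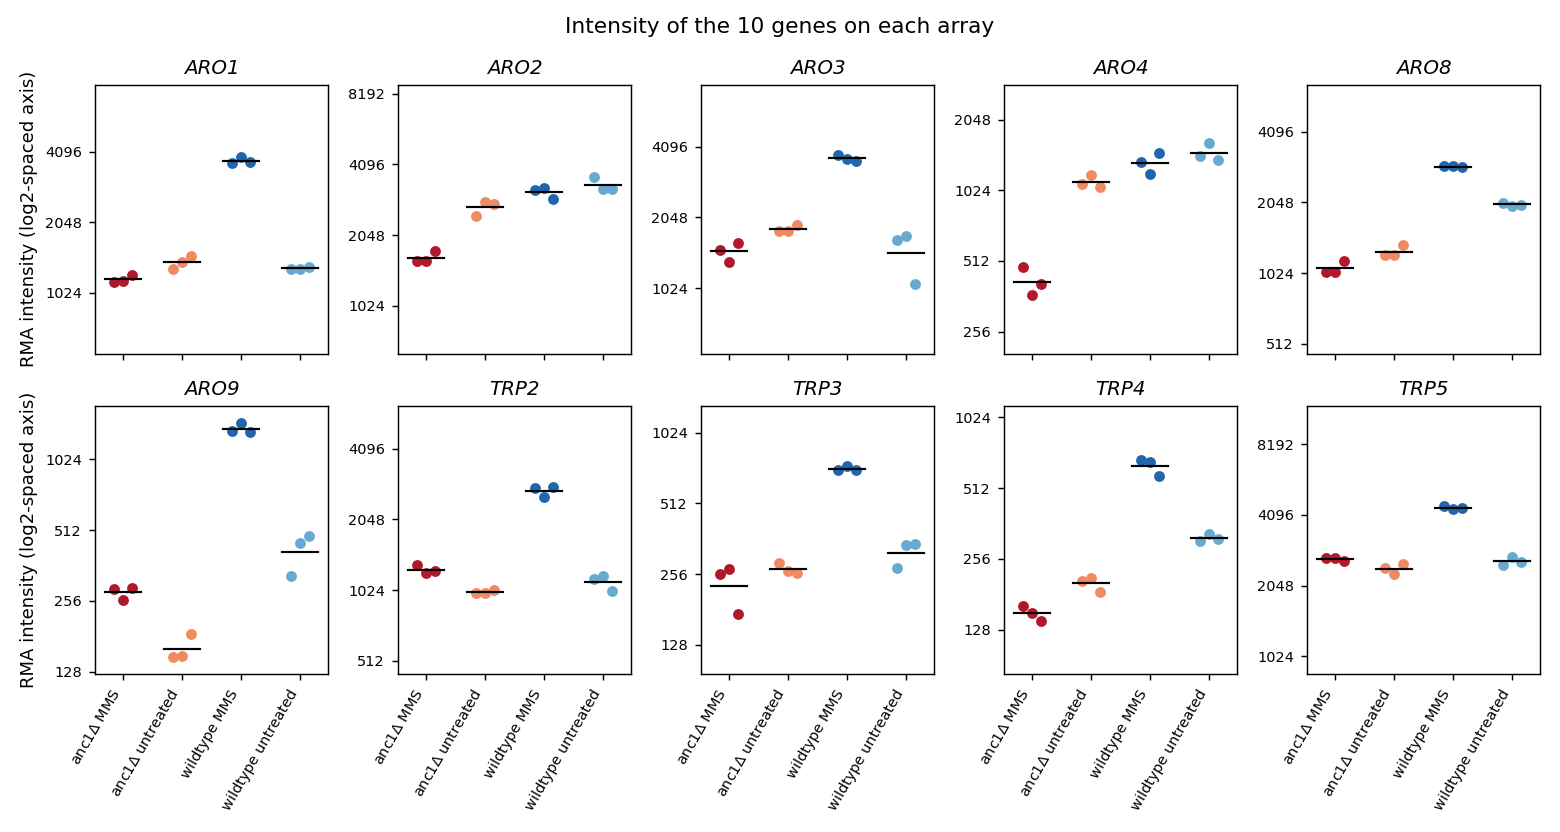
RMA intensity of the 10 genes on each array, on an axis spaced by log2 that spans the same number of doublings in every panel; points are the 3 arrays of a group and the line is the mean of their log2 values. Exposed wildtype cells stand highest in 8 genes, and exposed anc1Δ cells stand far below the rest in ARO4, at 366 to 483.

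With MMS, 3 of these genes were called in anc1Δ cells, a share near that of all genes, and 7 were called in wildtype cells, all of them higher. In anc1Δ, 1 of the 10 rose (ARO9), 2 fell (ARO2 and ARO4) and 7 did not pass, where 16.0% of all genes were called higher and 15.7% lower. On adjusted p alone 7 of the 10 passed in anc1Δ, beside 58.9% of all genes. In wildtype, 7 of the 10 rose, none fell, and ARO2, ARO4 and ARO8 did not pass, where 27.7% of all genes were called higher and 20.8% lower. Among all calls in wildtype 57.2% were higher, against 49.0% with each array centred on its median, where 7 of the 10 still rose. The median change over the 10 genes was -0.24 in anc1Δ and 1.10 in wildtype, beside medians over all genes of -0.01 and 0.08.

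At the entry step, ARO3 changed by -0.31 with MMS in anc1Δ (SE 0.15, limma adjusted p = 0.0997), with a 95% interval of -0.64 to 0.01, and rose by 1.35 in wildtype (SE 0.15, limma adjusted p = 3.63e-06). ARO4 fell by 1.41 in anc1Δ (SE 0.12, limma adjusted p = 7.91e-07) and changed by -0.14 in wildtype (95% interval -0.40 to 0.12, limma adjusted p = 0.315). With single arrays left out, that wildtype value ran from -0.21 without exposed replicate 3 to -0.069 without untreated replicate 2 and -0.060 without exposed replicate 2. Its lowest value under any alternative was -0.26. ARO1 rose by 1.52 in wildtype, a 2.88-fold difference, and changed by -0.24 in anc1Δ, which passed on p (limma adjusted p = 0.0242) but not on fold. For ARO2 the change was -0.71 in anc1Δ (limma adjusted p = 3.49e-05) and -0.10 in wildtype (95% interval -0.31 to 0.10), and the wildtype value turned to 0.091 when the arrays were quantile normalized again, to -0.22 on median-centred arrays, to -0.058 without exposed replicate 3 and to -0.050 without untreated replicate 1. Thus of the steps before chorismate, ARO1 and ARO3 rose in wildtype alone by the criterion, and ARO2 and ARO4 fell in anc1Δ alone by it.

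Within the tryptophan branch, TRP2 changed by 0.32 in anc1Δ (95% interval 0.13 to 0.51), short of the fold limit, and rose by 1.29 in wildtype (SE 0.09). The change of TRP3 was -0.24 in anc1Δ (95% interval -0.56 to 0.09) and 1.18 in wildtype (SE 0.15). TRP3 read lowest on exposed anc1Δ replicate 3, and without that array its change in anc1Δ was -0.04. TRP4 changed by -0.42 in anc1Δ (SE 0.10, limma adjusted p = 0.00252), short of the fold limit, and rose by 1.02 in wildtype (SE 0.10). TRP5 changed by 0.14 in anc1Δ (95% interval -0.03 to 0.30) and rose by 0.76 in wildtype (SE 0.08), the smallest called rise of the 7.

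ARO9 rose in both strains, by 0.81 in anc1Δ (1.75-fold, SE 0.14, limma adjusted p = 0.000329) and by 1.74 in wildtype (3.34-fold, SE 0.14, limma adjusted p = 1.69e-07). ARO8 changed by -0.24 in anc1Δ (limma adjusted p = 0.0289) and by 0.53 in wildtype (limma adjusted p = 7.70e-05), and neither reached 1.5-fold. In wildtype ARO8 passed after quantile normalization, at 0.65. The groups with and without MMS did not overlap in 9 of the 10 genes in anc1Δ and in 8 in wildtype, where 70.7% and 74.6% of all genes did not overlap. An exact permutation test of 3 arrays against 3 cannot give a p below 0.1, two-sided, which it gave for each of these.

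**Figure D2:**
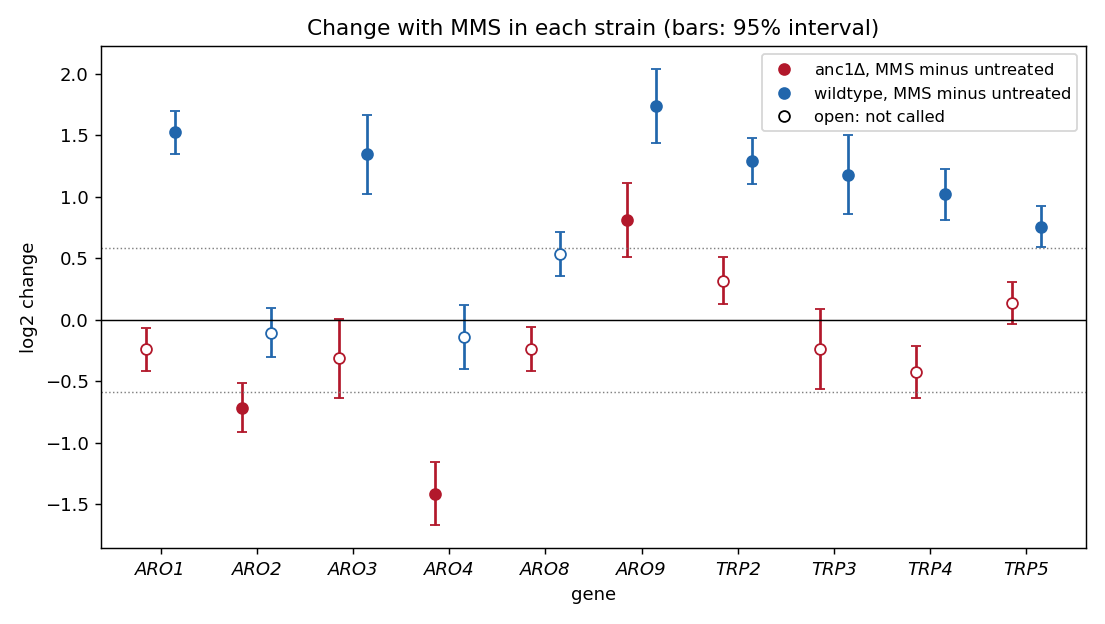
Log2 change with MMS of each gene in anc1Δ (red) and wildtype (blue) cells, with 95% intervals from limma; filled points were called, open points were not, and dotted lines mark 1.5-fold. The wildtype point lies above the anc1Δ point in all 10 genes, and the nearest pair is ARO2, at -0.71 in anc1Δ and -0.10 in wildtype.

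The change with MMS was lower in anc1Δ than in wildtype for all 10 genes, tested as the interaction of strain and MMS. Across all genes 14.2% were called lower in this test and 9.58% higher. The median difference over the 10 genes was -1.12, beside -0.08 over all genes, and the single values ran from -1.76 in ARO1 to -0.61 in ARO2. In 5 genes (ARO1, ARO3, ARO8, TRP3 and TRP4) the estimated change was positive in wildtype and negative in anc1Δ, in ARO9, TRP2 and TRP5 it was positive in both strains, and in ARO2 and ARO4 negative in both.

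Of the genes before chorismate, ARO1 had an interaction of -1.76 (95% interval -2.01 to -1.52, limma adjusted p = 9.52e-07), ARO3 of -1.66 (-2.12 to -1.20, limma adjusted p = 0.000135) and ARO4 of -1.27 (-1.64 to -0.91, limma adjusted p = 0.000179). The difference in ARO4 was thus of a size with those of ARO1 and ARO3, but it came with a fall in anc1Δ, where theirs came with a rise in wildtype. In the tryptophan branch it was -1.45 for TRP4 (limma adjusted p = 1.58e-05), -1.42 for TRP3 (limma adjusted p = 0.000440), -0.97 for TRP2 (limma adjusted p = 0.000138) and -0.62 for TRP5 (limma adjusted p = 0.00146). The aminotransferase genes ARO9 and ARO8 differed by -0.93 (limma adjusted p = 0.00412) and -0.77 (limma adjusted p = 0.000492). ARO2, at -0.61 (limma adjusted p = 0.00468), and TRP5 lay close to the fold limit. When each array was centred on its median, ARO2 (-0.53) and TRP5 (-0.54) no longer reached 1.5-fold, and 8 of 10 were called, while 11.1% of all genes were called lower and higher calls made up 51.5% of all calls, against 40.2% of them on the values as deposited. The call of ARO2 was also lost without wildtype untreated replicate 2 (-0.58), wildtype exposed replicate 2 (-0.58), anc1Δ untreated replicate 2 (-0.57) or anc1Δ untreated replicate 3 (-0.58).

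Of the 5 MMS exposure genes, 3 were also called lower in the interaction (RNR3 at -2.27, HUG1 at -1.94 and RNR2 at -0.70) and MAG1 was not, at -0.08 (95% interval -0.41 to 0.25). Of all genes 14.2% were called lower there. Whether a weaker exposure or response of anc1Δ cells as a whole had a part in the values of the 10 genes was not tested.

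Under MMS, all 10 genes were lower in anc1Δ than in wildtype cells. The median difference was -1.54, beside -0.18 over all genes, where 18.4% of genes were called lower and 10.9% higher. With each array centred on its median all 10 were still called, 11.9% of all genes were called lower, and the share of higher calls among all calls was 53.3%, against 37.4% as deposited. This comparison shares its exposed arrays with the MMS responses and is no separate support for them. The strains did not overlap in any of the 10 genes, as in 72.0% of all genes.

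ARO9 differed most, by -2.31 (4.97-fold, SE 0.14, limma adjusted p = 4.41e-08), followed by TRP4, by -2.09 (4.25-fold, SE 0.10, limma adjusted p = 3.67e-09). ARO8, the other aminotransferase gene, and the other tryptophan branch genes differed by less. ARO4 and ARO1 both differed by -1.68 (3.21-fold each), TRP3 by -1.65 (3.13-fold), ARO8 by -1.44 (2.71-fold), ARO3 by -1.32 (2.49-fold) and TRP2 by -1.11 (2.16-fold). The smallest differences were those of ARO2, by -0.93 (SE 0.09), and TRP5, by -0.72 (1.65-fold, SE 0.08, limma adjusted p = 7.24e-06). Chorismate synthase and tryptophan synthase, the last enzymes before chorismate and before tryptophan, had the smallest differences in RNA level of the 10.

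Without MMS the strains differed less, and 3 of the 10 genes were lower in anc1Δ, none higher, and 7 did not pass, where 12.4% of all genes were called lower and 11.1% higher. Higher calls made up 47.4% of all calls, against 53.9% on median-centred arrays. Both aminotransferase genes were among the 3. ARO9 fell to 147 to 184 in anc1Δ, against 328 to 482 in wildtype, a log2 difference of -1.38 (2.60-fold, SE 0.17, limma adjusted p = 0.000499), which placed it at rank 68 from the lowest of 5656 genes. ARO8 differed by -0.67 (SE 0.10, limma adjusted p = 0.00131) and TRP4 by -0.64 (SE 0.10, limma adjusted p = 0.00193). TRP4 missed the fold limit without anc1Δ untreated replicate 3, at -0.58. The median over the 10 genes was -0.27, beside -0.10 over all genes.

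ARO4, at -0.41 (limma adjusted p = 0.0200), and ARO2, at -0.32 (limma adjusted p = 0.0498), passed on p but not on fold, which makes 5 of 10 on adjusted p alone, beside 44.8% of all genes. The other 5 did not pass, and the 95% intervals of their differences were -0.15 to 0.31 in ARO1, -0.38 to 0.10 in TRP2, -0.51 to 0.05 in TRP3 and -0.33 to 0.13 in TRP5. That of ARO3 was the widest, -0.06 to 0.75 around 0.34, since wildtype untreated replicate 3 read 1067 where the others read 1639 and 1705, and without it the difference was 0.13. The difference in ARO1, 0.083, was 0.13 without anc1Δ untreated replicate 1 and 0.040 without replicate 3, and that in TRP5, -0.10, was -0.066 without anc1Δ untreated replicate 2. Strains did not overlap in 6 of the 10 genes, beside 60.7% of all genes. The actin 3' to 5' ratio was also higher in untreated anc1Δ cells, and its part in these differences was not tested.

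**Figure D3:**
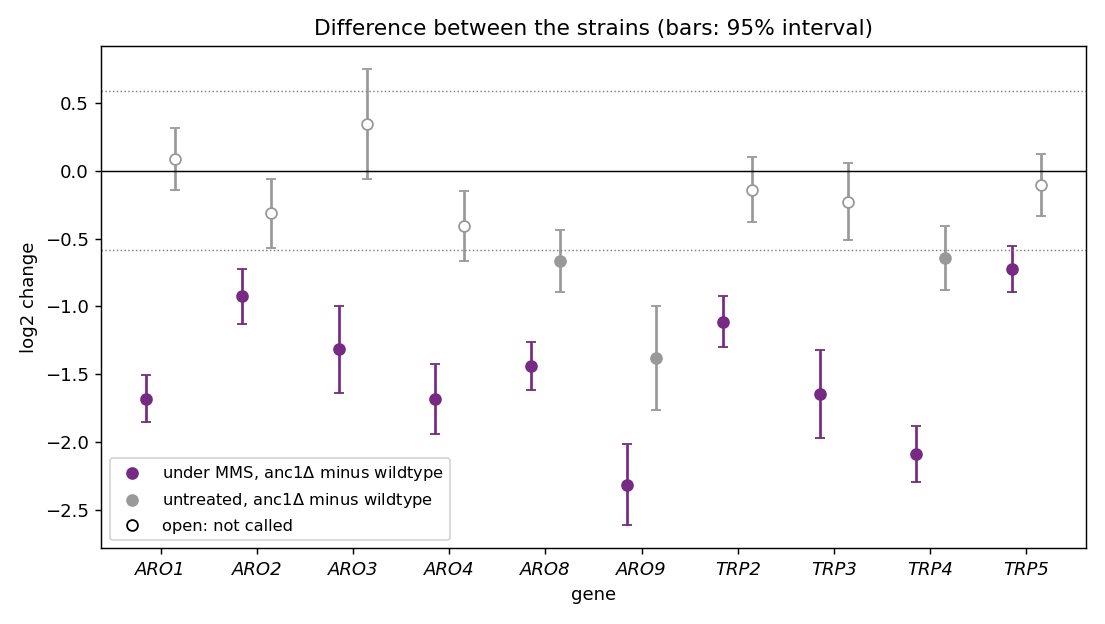
Log2 difference between the strains, anc1Δ minus wildtype, under MMS (purple) and untreated (grey), with 95% intervals from limma; filled points were called, open points were not, and dotted lines mark 1.5-fold. Under MMS all 10 genes lie between -2.31 and -0.72, and without MMS they lie between -1.38 and 0.34.

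The 37 other genes of the neighbouring pathways, in 7 lists chosen by function, were all measured. Over all genes, as given above, 14.2% were called lower and 9.58% higher in the interaction, 18.4% lower and 10.9% higher between the strains under MMS, and 12.4% lower and 11.1% higher without MMS. In lists of 4 to 7 genes a count of 1 lies near or above these shares, and nothing is read from it. Synthesis of aromatic amino acids has 4 further genes, ARO7 and, after it, PHA2 and TYR1 in the phenylalanine and tyrosine branch, and TRP1 in the tryptophan branch. In the interaction 1 of the 4 was called lower, TRP1 (-0.95, limma adjusted p = 0.00465), at a median of -0.17. Under MMS 3 of the 4 were lower in anc1Δ (TYR1 at -0.79, PHA2 at -0.78 and TRP1 at -0.59) and without MMS 1 was (TYR1 at -0.73). TRP1 missed the limit under MMS without wildtype exposed replicate 2 (-0.56) or anc1Δ exposed replicate 1 (-0.58) and on median-centred arrays (-0.47). TRP1, which encodes phosphoribosylanthranilate isomerase, read 369.8, 379 and 376 in exposed and 444, 438 and 472 in untreated anc1Δ cells, against 559, 595 and 545 in exposed and 447, 367 and 266 in untreated wildtype cells. The tryptophan gene thus had its highest group in exposed wildtype cells, as TRP2 to TRP5 did. Chorismate mutase, which opens the other branch, is encoded by ARO7, and its RNA changed with MMS by -0.19 in anc1Δ (95% interval -0.42 to 0.05) and by -0.08 in wildtype (-0.31 to 0.16). With MMS, TYR1 rose in both strains, by 0.59 in anc1Δ and 0.65 in wildtype, and PHA2 rose in wildtype, by 0.60. All of these lie near the fold limit and were lost without single arrays, TYR1 in anc1Δ without anc1Δ untreated replicate 2 (0.54) or exposed replicate 3 (0.55), TYR1 in wildtype without untreated replicate 1 (0.52), and PHA2 without wildtype untreated replicate 2 (0.54) or exposed replicate 2 (0.56). The rise of TRP1 in wildtype, 0.68, was likewise lost without wildtype untreated replicate 3 (0.48).

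Histidine synthesis is another Gcn4-controlled pathway. Its list holds 6 genes and leaves out HIS3, which is disrupted in this background. Of the 6, 3 were called lower in the interaction and none higher, at a median of -0.72, where 14.2% of all genes were called lower. The HIS3 signal was not called in the interaction (-0.20), nor between the strains under MMS (-0.21) or without (-0.02). HIS4 differed by -1.61 (limma adjusted p = 1.03e-05), HIS1, for the first enzyme of the pathway, by -1.16 (limma adjusted p = 4.23e-05) and HIS5, for histidinol phosphate aminotransferase, by -0.87 (limma adjusted p = 0.00319). As among the 10 genes, the forms of the difference were mixed. HIS1 and HIS5 rose with MMS in wildtype (0.89 and 1.07), and HIS4 fell in anc1Δ (by 1.11). Under MMS 5 of the 6 were lower in anc1Δ, led by HIS4 at -2.59 and HIS5 at -1.79, beside 18.4% of all genes, and without MMS 3 were (HIS4 -0.97, HIS5 -0.92 and HIS2 -0.89), beside 12.4%.

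GCN4 RNA itself did not pass in any comparison. It read 3272, 3487 and 3324 in exposed and 4062, 3499 and 4063 in untreated anc1Δ cells, against 3329.6, 3513 and 3214 in exposed and 3499, 3138 and 3197 in untreated wildtype cells. The difference between the strains under MMS was 0.0042 (95% interval -0.19 to 0.20) and that without MMS was 0.24 (-0.01 to 0.49). Its change with MMS was -0.20 in anc1Δ (-0.40 to -0.01) and 0.03 in wildtype (-0.16 to 0.23). Gcn4 is known to be controlled mainly by translation of its mRNA, which these arrays do not measure. Of the 5 genes of general amino acid control none was called in the interaction, at a median of -0.24, with none higher and 2 lower under MMS (GCN20 at -0.74 and GCN2, for the kinase that senses uncharged tRNA, at -0.70). GCN2 missed the fold limit on median-centred arrays, at -0.57. With MMS 1 of the 5 fell in each strain and none rose, and in both it was GCN1, whose product acts with Gcn2, by 0.60 in anc1Δ (limma adjusted p = 8.95e-05) and 0.59 in wildtype (limma adjusted p = 5.77e-05). GCN1 has 9 probe sets, and these values come from the brightest only. Both changes lay near the fold limit. The call in anc1Δ was lost without untreated replicate 3 (-0.57). That in wildtype was lost without untreated replicate 2 (-0.57) or 3 (-0.56) or exposed replicate 2 (-0.53). Over all genes 15.7% fell with MMS in anc1Δ and 20.8% in wildtype.

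Among 5 genes of aromatic amino acid breakdown none was called in the interaction (median -0.36). With MMS 3 rose and 1 fell in anc1Δ, beside 16.0% and 15.7% of all genes. In wildtype 3 rose and none fell, beside 27.7% and 20.8% of all genes. Between the strains none was higher and 2 were lower under MMS, and 1 was higher and 2 lower without. ARO10, for the decarboxylase that follows transamination, read 130.2, 108 and 137 in exposed and 43.5, 40.6 and 42.7 in untreated anc1Δ cells, against 1154, 1288 and 1052 in exposed and 177, 309 and 293 in untreated wildtype cells. Like ARO9, it was lower in anc1Δ with MMS (-3.22, limma adjusted p = 2.10e-08) and without (-2.58, limma adjusted p = 5.71e-05), and it rose with MMS in both strains, by 1.56 in anc1Δ and 2.20 in wildtype. Its interaction of -0.65 did not pass (95% interval -1.20 to -0.10, limma adjusted p = 0.0698). It was -0.39 and did not pass without wildtype untreated replicate 1, and passed without replicate 2 (-0.80) or 3 (-0.76) of that group. ARO80, for the activator of ARO9 and ARO10, read 66.8, 64.6 and 69.6 in exposed and 41.8, 35.2 and 44.5 in untreated anc1Δ cells, against 67.9, 63.1 and 55.5 in exposed and 31.1, 28.2 and 27.9 in untreated wildtype cells. The ARO80 signal was not lower in anc1Δ, with strain differences of 0.11 under MMS (95% interval -0.12 to 0.35) and 0.47 without (0.19 to 0.75, short of the fold limit). This signal rose with MMS in both strains, by 0.73 in anc1Δ and 1.09 in wildtype. LEU2 is disrupted in this background. Without MMS ARO80 read no higher than LEU2, which read 39.7 to 64.5 in anc1Δ and 41.4 to 64.0 in wildtype. With MMS ARO80 read above LEU2, which read 30.4 to 36.5 in anc1Δ and 23.2 to 25.1 in wildtype. MET15 and URA3, also disrupted, read dimmer than ARO80 throughout. The untreated ARO80 values may thus be largely background signal, and little can be read from them or from the size of the ARO80 changes. SFA1, for an alcohol dehydrogenase of the same route, rose with MMS by 1.501 in anc1Δ and 1.47 in wildtype.

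Genes for uptake, for NAD synthesis from tryptophan and for charging of tRNA each moved in their own way. Of 6 uptake genes, 4 were called lower in the interaction and none higher (median -0.65), beside 14.2% and 9.58% of all genes, namely AGP1 (-0.91), GAP1 (-0.71), TAT2 (-0.70) and BAP2 (-0.59), which all encode amino acid permeases. With MMS none of the 6 rose and 2 fell in anc1Δ, and 2 rose and 1 fell in wildtype. Over all genes 16.0% rose and 15.7% fell in anc1Δ, and 27.7% rose and 20.8% fell in wildtype. Between the strains 1 was higher and 1 lower in anc1Δ under MMS, and 2 were higher and 2 lower without, beside 10.9% and 18.4% of all genes under MMS and 11.1% and 12.4% without. TAT2, for the high-affinity tryptophan permease, fell with MMS in anc1Δ, by 0.91. GAP1 was higher in anc1Δ than in wildtype under MMS (1.31), against the direction of the 10 genes. It was also higher without MMS (2.02), where the differences of the 10 genes were negative in 8 and positive in 2. BAP2 lay at the fold limit, and its call was lost without any one of 5 arrays, at -0.50 without wildtype untreated replicate 3 and between -0.58 and -0.54 without wildtype exposed replicate 1 or 2, anc1Δ untreated replicate 1 or anc1Δ exposed replicate 1. Of the 7 genes listed under NAD synthesis from tryptophan, 1 was lower in the interaction and 1 higher (median -0.04). With MMS none rose and 2 fell in anc1Δ, and 2 rose and 2 fell in wildtype. BNA1 read 112, 121 and 120.1 in exposed and 191, 206 and 191 in untreated anc1Δ cells, against 1759.8, 1875 and 1917 in exposed and 942, 887 and 783 in untreated wildtype cells, an interaction of -1.83 (limma adjusted p = 1.55e-06). BNA4 had one of 0.99, with a fall in wildtype under MMS, by 1.53. Under MMS 5 of the 7 were lower in anc1Δ and without MMS 4 were, among them BNA5, for kynureninase, at -2.11 and -2.31. Of the 4 tRNA synthetase genes for aromatic amino acids none was called in the interaction (median 0.22), and none rose with MMS while 2 fell in anc1Δ and 2 in wildtype. In anc1Δ 1 was lower than in wildtype under MMS and 2 without, and none higher. WRS1, for the tryptophan enzyme, fell with MMS in both strains, by 1.07 in anc1Δ and 1.44 in wildtype. The synthetase for tryptophan thus fell in wildtype where TRP2 to TRP5 rose.

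**Figure D4:**
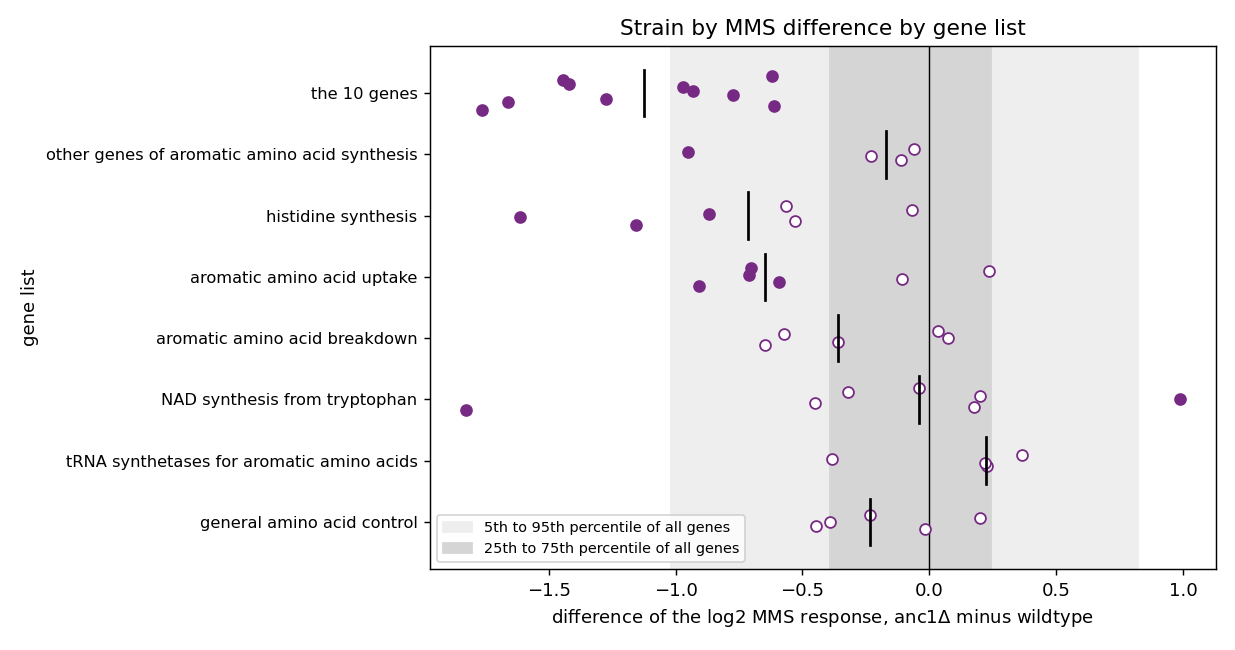
Difference of the log2 MMS response, anc1Δ minus wildtype, for each gene of the 10 and of 7 neighbouring lists; filled points were called, open points were not, black bars are list medians, and grey bands give the middle and the outer range of all 5656 genes. The 10 genes lie between -1.76 and -0.61 with a median of -1.12, and the tRNA synthetase genes have a median of 0.22.

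Likeness of pattern was measured over the 12 arrays as the root mean square difference of log2 values, each gene centred on its mean, for the 9 genes whose group means span at least 1 on the log2 scale. This is a description of these arrays with no test. Nearest to ARO1 were NIT1 (0.14), MET16 (0.18) and LYS2 (0.18), and nearest to ARO3 were TPS3 (0.11), ZTA1 (0.17) and XKS1 (0.19). ARO4 lay nearest to HOM2 (0.14), of threonine and methionine synthesis, then to ILV3 (0.20), of branched-chain amino acid synthesis, and TAT2 (0.22). For ARO2 the order was CAB2 (0.09), DPS1 (0.11) and BGL2 (0.13), and for ARO8 it was HIS2 (0.10), YOR111W (0.12) and CAF16 (0.13). For ARO9, GPA1 came first (0.17), before PHO81 (0.26) and SDT1 (0.29). GPA1 encodes the alpha subunit of the G protein of pheromone signalling. TRP2 had XRN1 (0.11), ATG19 (0.12) and LEU4 (0.12) as neighbours, TRP3 had YBR137W (0.20), HIS1 (0.21) and MET16 (0.23), and TRP4 had GRX4 (0.16), CAF16 (0.17) and CTF19 (0.20). Of these 27 places, 3 went to genes of the neighbouring lists (TAT2, HIS2 and HIS1). None of the 10 was among the 3 nearest genes of any of these 9, and the nearest genes of TRP5 were not sought. The closest pair within the 10 was TRP2 and TRP5, at 0.23.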

How the data were processed

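Expression was measured on 12 arrays of 9335 probe sets. Each deposited intensity had been background corrected, normalized and summarized by the authors with RMA and stands on the linear scale. Which RMA version was run, and on which arrays jointly, is not stated in the sources used. No filter on present and absent calls, such as the authors applied, was made. The fits were planned for log2 values, so log2 was taken, 60 control probe sets were left out, and 9275 were tested, of which 6504 named 1 gene, 328 several and 2443 none, by the platform annotation, matched through Entrez identifiers to the R64 gene table. The probe set with the highest mean stood for a gene. Where 2 groups are compared without MMS, limma 3.58.1 in R 4.3.3 was fitted to the 6 untreated arrays, and otherwise to all 12 with 1 mean a group. The LPE test of the methods was not used here. Precision is limited by the number of arrays. Arrays of a group correlated with r of 0.988 to 0.997 over probe sets, none was a copy of another, and their median intensity lay between 104 and 119.8. The fits were tested on simulated data.

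The 10 genes and all lists were chosen with earlier results of these data known. Named are the 10, GCN4, ARO80, ARO10 and ANC1, up to 4 called genes a list and comparison with the smallest p, and the 3 nearest genes by pattern. ARO7, the MMS exposure genes, the mating-type genes and the genes disrupted in the background were named outside this rule. Alternatives were each array left out, the replicate number as a block, median centring, quantile normalization, the dimmest 25% left out, a prior variance that follows intensity, other fold limits, other sets of arrays, array weights and averaging the probe sets of a gene. Same-numbered arrays were tested as pairs by correlating deviations from group means. This gave 0.37, 0.24 and 0.17 for exposed and untreated anc1Δ cells, so that the numbers were taken to pair them. For the other comparisons it gave values on both sides of 0 or below 0. The reported fits did not use the pairing, which entered only through the replicate block among the alternatives. Promoter and protein sequences were not used here.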

Additional observations from a re-analysis of the deposited data

Results flagged for a closer look

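The response to MMS differed between the strains in each of the 10 genes by the test of that difference itself, the interaction of strain and MMS in limma, as the log2 change in anc1Δ minus that in wildtype. The values were -1.76 for ARO1, -0.61 for ARO2, -1.66 for ARO3, -1.27 for ARO4, -0.77 for ARO8, -0.93 for ARO9, -0.97 for TRP2, -1.42 for TRP3, -1.45 for TRP4 and -0.62 for TRP5. Of all genes 14.2% were called lower and 9.58% higher in this test. On median-centred arrays ARO2 (-0.53) and TRP5 (-0.54) lost the call, and that of ARO2 was also lost when some single arrays were left out. Groups of 3 arrays were not tested for single deviating arrays.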

How the results depend on the processing

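Of the changes of the 10 genes under the alternatives, 782 kept their direction and their side of the threshold, 19 lost the call, 8 gained it and 1 turned (ARO2 with MMS in wildtype, 0.091 after quantile normalization). Part of the 782 was fixed in advance. Averaging probe sets could change nothing for the 10 genes, since each has 1. Dropping the fold limit can only add calls, and a limit of 2 can only remove them. With no fold limit the genes called of the 10 were 5 between the untreated strains (3 as reported) and 7 with MMS in anc1Δ (3 as reported). With a limit of 2 they were 1 and 1, and 5 in the interaction (10 as reported), by the construction of the limit. Leaving out single arrays gave 2 to 3 between the untreated strains and 9 to 10 in the interaction, and 7, 3 and 10 throughout for MMS in wildtype, MMS in anc1Δ and the strains under MMS. The replicate block gave the same 3, 7, 3, 10 and 10 calls and changed no call of the 10 genes. It left 1795 of all genes called with MMS in anc1Δ, against 1793 without it.

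The near-zero changes of GCN4 turned to -0.083 with MMS in wildtype on median-centred arrays, and without single arrays they ran from -0.0014 (wildtype exposed replicate 2) to 0.081. Between the strains under MMS they turned to -0.034 after quantile normalization, and without single exposed arrays they ran from -0.026 (wildtype replicate 3) to 0.039, with -0.023 without anc1Δ replicate 2 and -0.00014 without wildtype replicate 1. Over all genes, calls between the untreated strains numbered 1328, and 2533 and 475 with no limit and a limit of 2. For MMS in wildtype these were 2744, 4151 and 1487, for MMS in anc1Δ 1793, 3332 and 661, for the strains under MMS 1657, 3383 and 566, and for the interaction 1347 and, with a limit of 2, 440. Median centring moved the median change of all genes by over 0.1 in 2 comparisons, to -0.04 (0.08 as deposited) for MMS in wildtype and to -0.05 (-0.18 as deposited) for the strains under MMS.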
